A study of Homo sapiens with 12 samples.

Results

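Long non-coding RNAs that stay in the nucleus, or whose introns carry small nucleolar RNAs, were followed in T24 cells, an established human bladder cancer line. The 10 genes MALAT1, NEAT1, TUG1, KCNQ1OT1, H19, GAS5, SNHG1, SNHG5, SNHG12 and SNHG15 were taken by gene name from the 60504 genes of the deposited tables. Where a name had more than 1 entry, as for MALAT1, the longest was used. The study asked how gene expression changes when U11, a small nuclear RNA of the minor spliceosome, is removed or raised. In the first set of libraries, 2 libraries labelled U11 knockout were compared with 2 untreated controls (called control T here). By the study's methods the knockout line was 1 clone made with CRISPR/Cas9 and a pair of guides to U11. In the second set, 6 libraries labelled as overexpressing U11 were compared with 2 untreated controls (control T24). These 6 carry the line labels 79, 86 and 87, with replicates 1 and 3 of each, and the labels do not say how the lines differ. The overexpression cells carried a pcDNA plasmid with U11 and were selected as single clones. All cells shared the T24 background, and nothing stated that replicates were separate cultures, so P values measure only the spread between these libraries.

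MALAT1 and NEAT1 are neighbours on chromosome 11 and remain in the nucleus. MALAT1 collects in nuclear speckles, and the long form of NEAT1 is the scaffold of paraspeckles. Neither MALAT1 nor long NEAT1 ends in an ordinary poly(A) tail: RNase P cuts behind a stretch of A encoded in the genome and the new end folds into a triple helix. KCNQ1OT1 and H19 are imprinted RNAs of 11p15.5. KCNQ1OT1 silences neighbouring genes on the paternal chromosome, while H19 is made from the maternal chromosome and shares control regions with the growth factor gene IGF2. TUG1 is a widely expressed lncRNA. GAS5 and the SNHG genes are hosts: snoRNAs, which guide the modification of ribosomal RNA, are cut from their introns, and the spliced remainder is translated little and removed by nonsense-mediated decay. Several host transcripts start with a C followed by pyrimidines, a start shared with ribosomal protein genes.

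The encoded 3′ ends of MALAT1 and NEAT1 are shown because these 2 members remained called between the controls of the 2 sets relative to the protein-coding total, as described further on. On TPM as deposited MALAT1 differed least in size of the 8 members tested. The part of their ends in that difference was not tested. They were read from hg38 on the plus strand, as the 30 bases before the mascRNA entry of MALAT1 (chr11:65506087-65506116) and the last 30 bases of the NEAT1 entry (chr11:65445511-65445540). Capitals mark the longest run of A, 13 bases in MALAT1 and 5 in NEAT1.
MALAT1: ttttctagcttAAAAAAAAAAAAAgcaaaa
NEAT1: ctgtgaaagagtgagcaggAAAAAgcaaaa

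Transcript starts of the 4 host genes matched in RefSeq are shown to see which of them begin this way. They are the first 25 bases from the RefSeq start (GRCh38.p14, minus strand) of GAS5 at chr1:173869021-173869045, SNHG1 at chr11:62855861-62855885, SNHG5 at chr6:85678709-85678733 and SNHG12 at chr1:28581849-28581873. Capitals mark a C at the first base with at least 4 pyrimidines after it.
GAS5: agatgtgtttattttggagcctaca
SNHG1: ctcatttttctactgctcgtggtaa
SNHG5: CTTTTacgtcggccttcgcgagcgt
SNHG12: CCTTTCTCCCCgccgcattcccggt
SNHG5 and SNHG12, 2 of the 4, had such a run at the annotated start. SNHG1 had 3 pyrimidines there and GAS5 began with a purine. The deposited entries start elsewhere, GAS5 at 1:173868882 and SNHG12 at 1:28582983, and no other start of these genes was read. Of 35116 RefSeq starts, 4.07% began this way, as did 5 of 18 starts of other snoRNA host genes.

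By the coordinates of the files (hg38), NEAT1 lies at 11:65422774-65445540 and MALAT1 at 11:65497762-65506516, both on the plus strand. H19 (11:1995163-2001470) and KCNQ1OT1 (11:2608328-2699994) lie on the minus strand of the same chromosome, the latter inside KCNQ1 on the opposite strand. SNHG12 (1:28578538-28582983, minus) lies 65617 bases from RNU11, the U11 gene, and is the only member in that neighbourhood. GAS5 overlaps ZBTB37 on the opposite strand over 801 bases. Whether counting used the strand was not given in the sources used here, so reads of such pairs cannot be told apart.

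The 2 sets of libraries differed in content before any treatment. Aligned bases were 13.65 to 15.17 gigabases in the knockout set and 9.07 to 15.33 in the overexpression set. Histone genes summed to 27662 to 34279 TPM in the first and 103 to 180 TPM in the second, and protein-coding genes held 43.98% to 47.12% against 94.2% to 94.9% of all TPM. TPM (a level per transcript length, with an equal sum in every library) was therefore compared within a set. The TPM of U11 did not follow its knockout label: summed over its 2 entries it was 21.4 and 23.8 in control T and rose to 31.6 and 37.4 under the knockout label. In the second set it was 0.0334 and 0.623 TPM in control T24, 0.183 and 0.412 in line 79, 3.98 and 3.72 in line 86, and 61.9 and 53.6 in line 87, so line 79 lay within the range of its controls. By real-time PCR the study reported U11 as decreased in the knockout line and raised in the overexpression line. The U11 entries lie within 1:28648600-28648733, and the TPM of entries this short is uncertain. The epithelial keratins KRT7, KRT8 and KRT18 and the mesenchymal gene VIM were high throughout, while EPCAM (up to 2.32 TPM) and the urothelial gene UPK2 (up to 0.437 TPM) were near absent. Of the other T24 markers, KRT19 was at 90.3 to 321 TPM, CD44 at 144 to 399 and ITGA3 at 130 to 399. PPARG was at 18.9 to 54.5 TPM and GATA3 at 2.38 to 17.4 TPM. Of 12 markers of blood, endothelium and fibroblasts, 7 stayed under 1 TPM in every library.

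**Figure D1:**
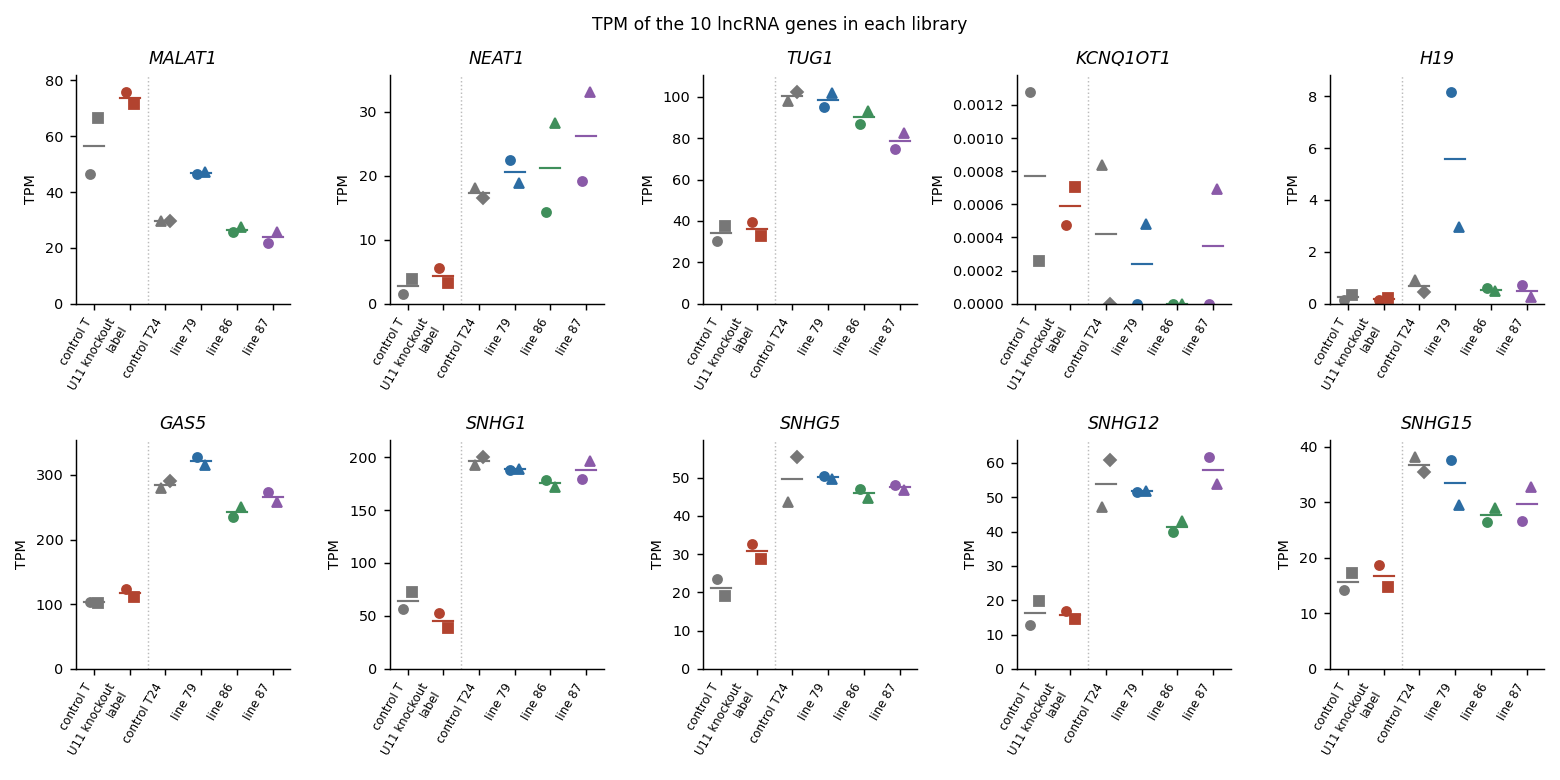
TPM (y axis, from 0, a different scale for each gene) of the 10 lncRNA genes in each library, by group (x axis). Each point is 1 library (circle, square, triangle and diamond for replicates 1, 2, 3 and 4), each bar is a group mean, and the dotted line separates the 2 library sets. MALAT1 was higher in the knockout set than in all libraries of the overexpression set except those of line 79, while GAS5, SNHG1, SNHG5, SNHG12, SNHG15, TUG1 and NEAT1 were lower in the knockout set.

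Among the members, the hosts GAS5 and SNHG1 had the highest mean levels per length in both control groups. The hosts SNHG5, SNHG12 and SNHG15 ranked below TUG1 there. In control T24 the mean TPM ran from GAS5 (285 ± 8.57, SD, n = 2) through SNHG1 (196 ± 5.39) and TUG1 (100.2 ± 3.33) to SNHG12 (54.0 ± 9.60), SNHG5 (49.6 ± 8.29), SNHG15 (36.8 ± 1.97), MALAT1 (29.8 ± 0.0318) and NEAT1 (17.3 ± 1.09). SNHG12 and SNHG5 overlapped in these libraries, and no other neighbours in the order did. In control T the order began with GAS5 (103 ± 1.17), SNHG1 (64.4 ± 11.5) and MALAT1 (56.6 ± 14.3). There SNHG1 and MALAT1 overlapped, as did SNHG5 with SNHG12 and SNHG12 with SNHG15. KCNQ1OT1 was not measurable: it was listed at 0 in 5 of the 12 libraries and at no more than 0.00128 TPM in the other 7, which is at most 1210 aligned bases over its 91667 bases.

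In the knockout comparison, none of the host or nuclear lncRNAs was called. A gene was called at an unadjusted P under 0.05 with a change of at least 1.5-fold, the thresholds of the study, by limma on log2(TPM + 1). Of the 10 members 8 reached 1 TPM in 2 or more of these 4 libraries and were tested, while H19 and KCNQ1OT1 did not. Over all 14356 genes tested, 11.8% were called, and 6.85% with a Benjamini-Hochberg adjusted P under 0.05 in place of the unadjusted one. The median log2 fold change of the 8 members was 0.13, against 0.11 for all genes. CDH5, the endothelial cadherin, moved with the label: it was at 4.75 to 4.85 TPM in control T and at 0.029 to 0.032 TPM under the knockout label. The 12 markers of blood, endothelium and fibroblasts summed to 6.21 to 6.64 TPM against 2.17 to 2.70 TPM, and without CDH5 to 1.46 to 1.79 against 2.14 to 2.66 TPM. Their part in the values of the members was not tested.

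SNHG5, which carries the U50 snoRNAs, came nearest to a call. Its level was 23.4 and 19.1 TPM in control T and 32.7 and 28.7 TPM under the knockout label. Both knockout-labelled libraries were above both controls. The log2 fold change was 0.51 (SE 0.14, unadjusted P = 0.0158, adjusted P = 0.0941, limma), a 1.43-fold difference that missed the fold threshold and the adjusted P. Without replicate 1 of control T it was 0.65 and was called, and without replicate 2 of the knockout label it was 0.60 and was called.

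SNHG1, host of several box C/D snoRNAs, was the member with the lowest fold change. It was at 56.3 and 72.6 TPM in control T against 52.4 and 38.6 TPM under the knockout label. The groups did not overlap, but the gap between the nearest libraries was smaller than the spread within either group. The log2 fold change was -0.50 (SE 0.20, adjusted P = 0.176). It was called at -0.68 without replicate 1 of control T, at -0.71 without replicate 1 of the knockout label, at -0.64 with median ratio scaling and at -0.59 with FPKM in place of TPM.

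MALAT1 was at 46.5 and 66.7 TPM in control T and at 76.0 and 71.4 TPM under the knockout label (log2 fold change 0.40, SE 0.19, adjusted P = 0.226). Its groups did not overlap, and replicate 1 of control T stood lowest. NEAT1 was at 1.53 and 3.87 TPM in control T and at 5.54 and 3.25 TPM under the knockout label (0.58, SE 0.38, adjusted P = 0.362), with overlap in TPM. On the coverage scale described further on, its groups did not overlap. Without replicate 2 of control T both were called, MALAT1 at 0.65 (adjusted P = 0.0201) and NEAT1 at 1.06 (adjusted P = 0.0369), so the absence of a call rested on that control.

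GAS5, best known for RNA levels that rise in growth arrest, was at 104 and 102 TPM in control T and at 123 and 111 TPM under the knockout label (log2 fold change 0.17, SE 0.09, adjusted P = 0.269). TUG1, SNHG12 and SNHG15 had log2 fold changes of 0.08, -0.03 and 0.09, and their groups overlapped. Median ratio scaling moved the median of all genes from 0.11 to -0.018, and with it TUG1 (-0.069) and SNHG15 (-0.054) changed sign. In all, the groups did not overlap for 4 of the 8 members (SNHG5, GAS5 and MALAT1 higher, SNHG1 lower), while 60.2% of all genes tested did not overlap in this comparison of 2 against 2 libraries.

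**Figure D2:**
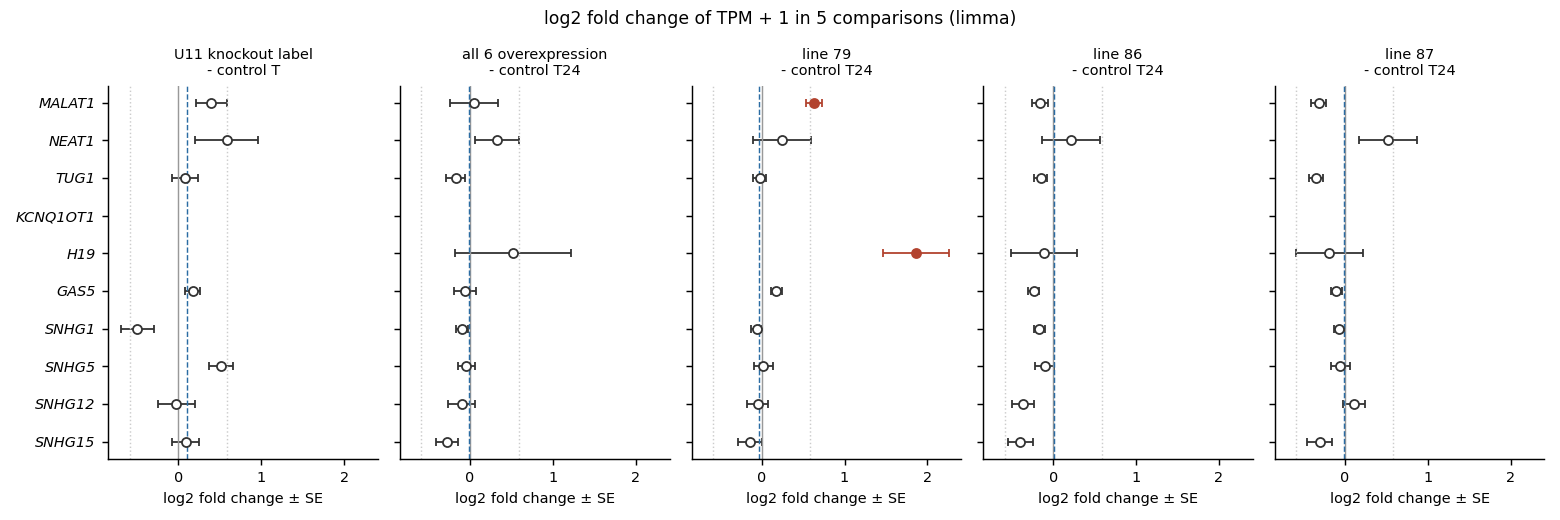
log2 fold changes of TPM + 1 (x axis) for each lncRNA gene (y axis) in 5 comparisons, with standard errors from limma. Filled red points are called, dotted lines mark 1.5-fold, the dashed line is the median of all genes tested, and genes without a point were under the filter. MALAT1 at 0.63 and H19 at 1.86 in line 79 are the filled points, and H19 passed the filter only through line 79.

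With the 3 lines joined as the overexpression group, 9 members were tested and none was called. KCNQ1OT1 was again under the filter. Of 15768 genes tested, 1.93% were called and 0.165% with the adjusted P. The largest values among members were 0.52 for H19 (SE 0.70, adjusted P = 0.941), 0.33 for NEAT1 (SE 0.27, adjusted P = 0.920) and -0.28 for SNHG15 (SE 0.14, adjusted P = 0.876). SNHG15 was at 38.2 and 35.4 TPM in control T24, and over the 6 overexpression libraries its lowest, median and highest values were 26.5, 29.2 and 37.6 TPM. For no member were the 6 libraries all above or all below the controls, which was the case for 9.87% of all genes. For MALAT1 and GAS5 each of the 6 lay outside the controls, with lines on opposite sides.

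Taken by line label, MALAT1 was higher in line 79, and so was H19, which passed the filter only through that line. Each line was set against the same 2 control T24 libraries in 1 fit of 4 groups, so the 3 comparisons share their controls. In line 79, 7.95% of all genes were called, 2.43% as higher, and 5.63% with the adjusted P.

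MALAT1 was at 29.7 and 29.8 TPM in control T24, at 46.3 and 47.0 TPM in line 79, at 25.7 and 27.4 TPM in line 86 and at 21.8 and 25.8 TPM in line 87. Line 79 stood above all other libraries of the set, and lines 86 and 87 lay below the controls. For line 79 the log2 fold change was 0.63 (SE 0.09, adjusted P = 0.0112), a 1.55-fold rise. It was -0.16 (adjusted P = 0.542) in line 86 and -0.32 (adjusted P = 0.145) in line 87. The call for line 79 held under every alternative run, at 0.62 to 0.68 and with an adjusted P of up to 0.0672 with single libraries left out, and the difference was 0.62 within the library series (a code in the library titles) of control 3 and 0.64 within that of control 4.

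H19 was at 0.915 and 0.445 TPM in control T24 and at 8.18 and 2.97 TPM in line 79. It was at 0.607 and 0.477 TPM in line 86 and at 0.724 and 0.241 TPM in line 87. Both libraries of line 79 were above all others, and they differed from each other more than the other 6 libraries did. The log2 fold change was 1.86 (SE 0.40, adjusted P = 0.0362) on the log2(TPM + 1) scale, which understates changes of low genes. With a pseudocount of 0.1 it was 2.76 (adjusted P = 0.0470). H19 passed the filter only through line 79: without either of its libraries H19 was no longer tested, and with all genes unfiltered the adjusted P was 0.0975.

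IGF2, the neighbour of H19, also differed between the lines (adjusted P = 2.95e-04, moderated F test). It was at 105.8 and 93.5 TPM in control T24, at 38.1 and 33.8 TPM in line 79, at 147 and 133 TPM in line 86 and at 47.7 and 46.2 TPM in line 87. The log2 fold change was -1.45 in line 79 (SE 0.10, adjusted P = 6.97e-04) and -1.07 in line 87 (adjusted P = 0.00393), both called, and 0.49 in line 86 (adjusted P = 0.0767). So H19 was higher and IGF2 lower in line 79, whereas in line 87 IGF2 fell with H19 at its control level. The overlapping readthrough entry INS-IGF2 stayed at or under 0.119 TPM.

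**Figure D3:**
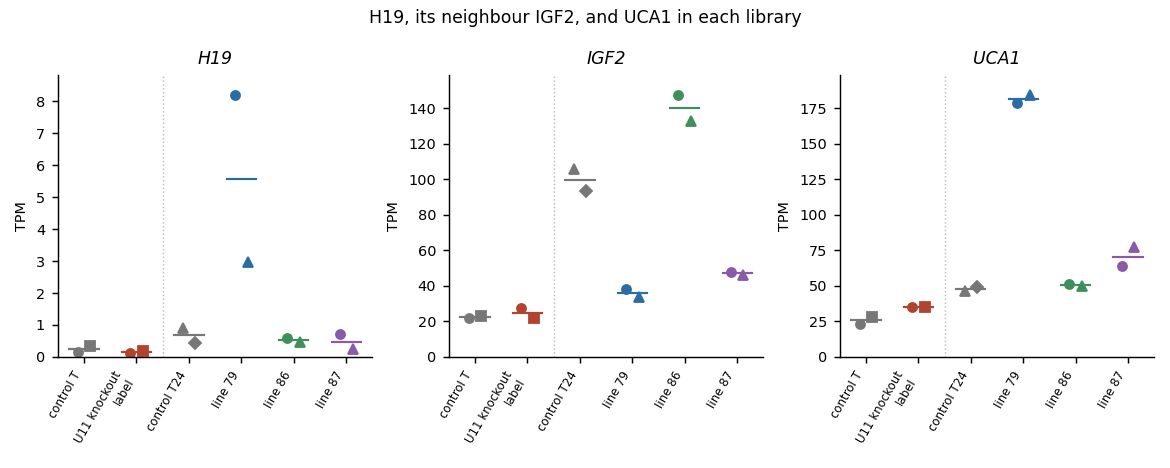
TPM (y axis, from 0) of H19, of IGF2 and of UCA1 in each library, by group (x axis), with points for libraries and bars for group means. H19 reaches 8.18 and 2.97 TPM in line 79, where IGF2 is at 38.1 and 33.8 TPM, and UCA1 is at 179 and 184 TPM in line 79 against 46.2 and 49.3 TPM in control T24.

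Line 79 also stood apart in a marker of another cell type. CDH5 was at 32.2 to 34.1 TPM in line 79 against 3.08 to 3.43 TPM in control T24, 4.17 to 4.74 in line 86 and 4.19 to 5.28 in line 87. The whole list of 12 markers summed to 39.7 to 41.0 TPM in line 79 against 6.49 to 10.01 TPM in control T24, and without CDH5 to 5.62 to 8.80 against 3.07 to 6.93 TPM. The endothelial genes PECAM1 and VWF were at or under 0.297 and 0.0856 TPM in every library. Its part in the values of H19 and MALAT1 was not tested.

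In lines 86 and 87 no member was called. The background was 3.6% of genes in line 86 (1.37% with the adjusted P) and 5.13% in line 87 (2.65%). The lowest adjusted P was for TUG1 in line 87: 97.9 and 102.6 TPM in control T24 against 74.9 and 82.6 TPM, a log2 fold change of -0.35 (SE 0.08, adjusted P = 0.0814). In line 86, SNHG12 (-0.36, adjusted P = 0.305) and SNHG15 (-0.39, adjusted P = 0.320) had the lowest values. The groups did not overlap for 5 members in line 79, 6 in line 86 and 5 in line 87, of 9 tested, where all genes gave 52.8%, 43.4% and 48.2%.

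The lines themselves differed for MALAT1 and GAS5, and for H19 only as filtered. By limma's moderated F test among the 3 lines, at an adjusted P under 0.05, MALAT1 (adjusted P = 0.00315), GAS5 (0.0177) and H19 (0.0253) passed, 3 of 9 tested, as did 16% of all genes. H19 entered the test only through line 79, where it is high, and with all genes unfiltered its adjusted P was 0.0770. GAS5 was at 279 and 291 TPM in control T24, at 328 and 316 TPM in line 79, at 234 and 250 TPM in line 86 and at 273 and 258 TPM in line 87. Line 79 was above and line 86 below the controls, with 0.41 between them on the log2 scale. The GAS5 call was lost without replicate 1 of line 86 (adjusted P = 0.0613) or without either library of line 79 (0.103 and 0.0729). The H19 call was lost without any 1 library of lines 86 and 87 (adjusted P from 0.0526 to 0.0676). Leaving out single libraries, the MALAT1 difference kept an adjusted P of at most 0.0270. TUG1 had an adjusted P of 0.0834, or 0.0201 with library series as a block, and its levels ran from 95.3 and 101.9 TPM in line 79 through 86.9 and 93.3 in line 86 to 74.9 and 82.6 in line 87.

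Centred within each set, MALAT1 varied over the 8 libraries of the overexpression set much as H19 did (Pearson r = 0.86) and as GAS5 did (r = 0.82). These points share libraries and lines, and line 79 supplies the high values of all 3 genes. Over all 12 libraries the genes most like MALAT1 among 9631 with at least 5 TPM were RPRD1A (r = 0.95) and EDIL3 (r = 0.93). For H19 they were COL6A2 (0.95) and ZSWIM7 (0.95), for GAS5 CNTNAP3B (0.93) and YTHDF1 (0.92), for NEAT1 HAUS3 (0.92) and ZNF326 (0.92), and for TUG1 TMEM65 (0.90). For the SNHG genes they were PTDSS1 (0.91) with SNHG1, LRPAP1 (0.93) and NENF (0.92) with SNHG5, RDH11 (0.89) and ZNF367 (0.87) with SNHG12, and RBM4B (0.85) and MRPL3 (0.85) with SNHG15.

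NEAT1 depended on the scale. In the overexpression set it was at 18.0 and 16.5 TPM in control T24, at 22.4 and 18.9 TPM in line 79, at 14.3 and 28.2 TPM in line 86 and at 19.2 and 33.2 TPM in line 87. Replicate 3 of lines 86 and 87 stood above the other 6 libraries. Coverage, the mean aligned bases per exonic position, did not follow: per aligned gigabase it was 6.26 and 5.85 in control T24, 7.48 and 6.73 in line 79, 5.14 and 5.94 in line 86, and 6.42 and 6.67 in line 87. The ratio of coverage to FPKM has an upper limit in each library, reached where all reads of a gene are assigned over its full exonic length, and falls where they are assigned to shorter transcripts. For NEAT1 it was 53.8% and 50.4% of that limit in replicate 3 of lines 86 and 87 and 83.3% to 92.3% in the other 6 libraries. With coverage in place of TPM the log2 fold changes were -0.11 in line 86 and 0.09 in line 87, against 0.21 and 0.53 with TPM.

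**Figure D4:**
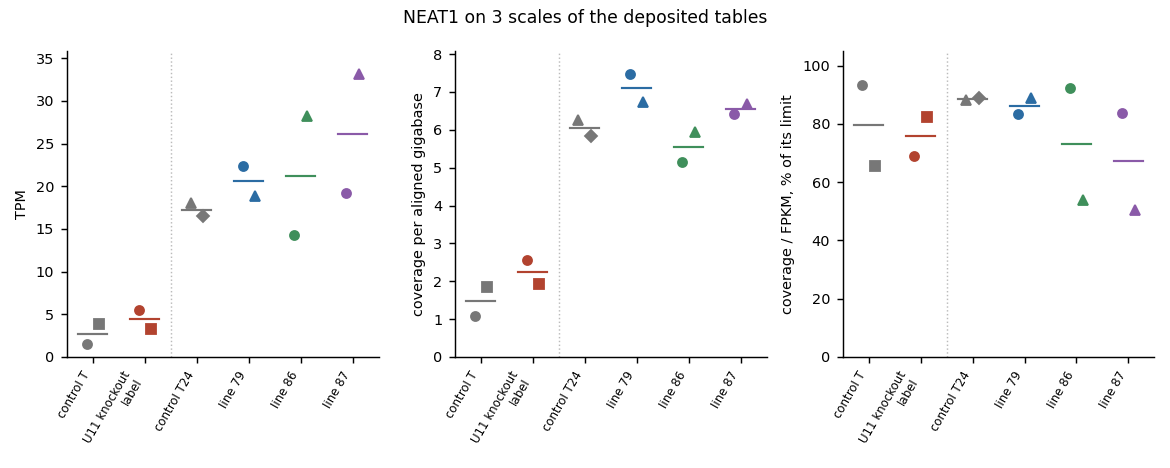
NEAT1 in each library on 3 scales (y axes, from 0): TPM, coverage per aligned gigabase, and the ratio of coverage to FPKM as a percentage of its limit in the library. Points are libraries and bars are group means. Replicate 3 (triangles) of lines 86 and 87, high in TPM at 28.2 and 33.2, are at 5.94 and 6.67 in coverage, and their ratios of 53.8% and 50.4% are the lowest.

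Between the controls of the 2 sets, both untreated T24 cells, nearly all levels differed. Set, preparation, date and culture cannot be told apart, so these values describe the libraries. All 8 members tested were called, where 73.9% of 14978 genes were (73.5% with the adjusted P), and 92% of genes did not overlap. MALAT1 was higher in control T than in control T24, by 0.88 on the log2 scale (SE 0.19, adjusted P = 0.00996), as were 3.51% of genes. The other 7 were lower, as were 70.4% of genes, from -1.18 for SNHG5 and SNHG15 to -2.38 for NEAT1 (SE 0.33, adjusted P = 0.00267). The median over all genes was -0.86.

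Relative to the total over protein-coding genes, which brought the median of all genes to 0.09, 23.1% of genes were called and 2 members remained: MALAT1 at 1.96 (adjusted P = 0.00525) and NEAT1 at -1.55 (adjusted P = 0.0476). On that scale MALAT1 was at 106 and 149 units in control T and at 31.4 and 31.6 units in control T24. NEAT1 was at 3.49 and 8.63 units against 19.002 and 17.5 units. The neighbours on chromosome 11 thus went in opposite directions between the sets on all scales tried, although MALAT1 was at 0.35 with an adjusted P of 0.240 with coverage in place of TPM. The 5 host genes were at -0.12 to -0.64 by the protein-coding total and none was called.

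**Figure D5:**
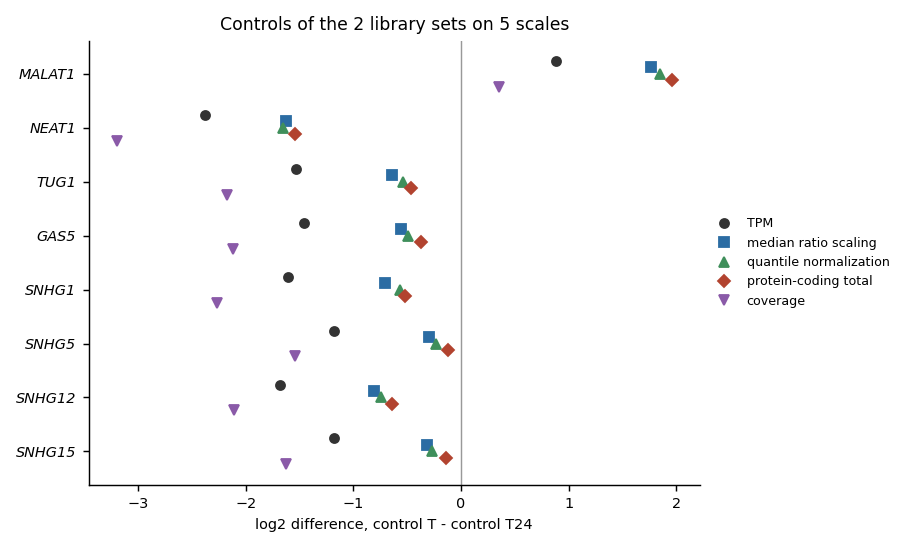
log2 difference between control T and control T24 (x axis) for 8 lncRNA genes (y axis) on 5 scales: TPM as deposited, median ratio scaling, quantile normalization, TPM over the protein-coding total, and coverage. MALAT1 is above 0 and the other 7 genes are below 0 on each scale.

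Small nucleolar RNA entries inside the hosts did not all move with their hosts between the sets. By position SNHG1 holds 7 such entries, SNHG12 5, SNHG5 2 and SNHG15 1. The same match by position and name gave 0 for GAS5, so its snoRNAs were not followed. The entries in SNHG1 summed to 59.9 to 96.1 TPM in the knockout set and 114.9 to 241 TPM in the overexpression set. Those in SNHG12 went the other way, 56.1 to 59.5 TPM against 14.3 to 37.0 TPM, where SNORA61 alone was at 34.7 to 42.2 TPM in the knockout set and at most 0.217 TPM in control T24. Entries this short are close to or below the length of the sequenced fragments, so their TPM is uncertain.

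Of the members, none showed an effect that differed between the knockout and overexpression comparisons. With all 12 libraries in 1 fit, the difference between the log2 fold changes had an adjusted P under 0.05 for 0 of 9 members and for 11.9% of 16404 genes, while 2 members had an unadjusted P under 0.05. SNHG5 was nearest, at 0.56 (SE 0.17, adjusted P = 0.0666), followed by GAS5 at 0.23 (adjusted P = 0.154).

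Other host genes were compared with the members. Of 22 other non-coding snoRNA hosts, 21 were tested, and in the knockout comparison none was called. Over all genes 11.8% were called there and 1.93% in the overexpression comparison. In the overexpression comparison 2 fell, SNHG18 (-2.20, adjusted P = 0.831) and SNHG20 (-0.79, adjusted P = 0.195). SNHG18 was at 11.03 and 11.9 TPM in control T24, at 1.06 and 0.672 TPM in line 79 and at 8.48 and 10.2 TPM in line 86. In line 87 it was listed at 0 in 1 library and at 0.0838 TPM in the other. The log2 fold changes were -2.75 in line 79 (adjusted P = 3.77e-04) and -3.58 in line 87 (adjusted P = 3.16e-04), larger in size than that of any member. SNHG20 was called lower in each line, and SNHG25 in line 87 (-0.67, adjusted P = 0.240). Over all genes 7.95% were called in line 79, 3.6% in line 86 and 5.13% in line 87. SNHG20 overlaps SEC14L1 on the same strand, so its reads are uncertain.

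Few of the proteins that act with these RNAs were called. Over all genes the share was 11.8% in the knockout comparison, 1.93% in the overexpression comparison and 3.6% to 7.95% in the lines. None of the paraspeckle proteins (19 tested in the knockout comparison, 20 in the others) was called in the knockout, overexpression or line comparisons, SFPQ and NONO included. Among 13 snoRNP proteins, NOLC1, a chaperone of snoRNPs, fell in the knockout comparison, from 82.7 and 63.9 TPM to 38.0 and 40.2 TPM (-0.88, adjusted P = 0.0386). Among 15 decay factors, UPF3A fell in the overexpression comparison (-0.67, adjusted P = 0.475) and in each line.

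Around the imprinted members, 8 of 16 genes of 11p15.5 were tested. Over all genes 11.8% were called in the knockout comparison, 7.95% in line 79 and 3.6% in line 86. In the knockout comparison TSSC4 rose (0.73, adjusted P = 0.153) and CDKN1C, the cell cycle inhibitor in the KCNQ1OT1 domain, fell from 2.99 and 2.52 TPM to 1.26 and 1.34 TPM (-0.71, adjusted P = 0.0470). The transporter gene SLC22A18 was called lower in line 79 (-0.60, adjusted P = 0.123) and higher in line 86 (0.61, adjusted P = 0.245). Of 17 genes next to the members, 1 was called, SNX14 beside SNHG5 (0.70 in the knockout comparison, adjusted P = 0.0412). Near U11, SNHG12 and its neighbours TAF12, GMEB1, TRNAU1AP and YTHDF2 were not called in the knockout, overexpression or line comparisons. RCC1 was at -0.57 in the knockout comparison (adjusted P = 0.0307), under the fold threshold. Among the 3 lines, where 16% of all genes passed the F test, so did the hosts SNHG18 and SNHG7 (2 of 21), the snoRNP protein NOP10 (1 of 13), the decay factor SMG9 (1 of 15), IGF2, SLC22A18 and PHLDA2 of 11p15.5 (3 of 8) and SLC3A2 beside SNHG1 (1 of 17).

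Among 11 other known lncRNAs tested, MIR22HG and MIR31HG, hosts of miRNAs, rose in the knockout comparison. The share called over all genes was 11.8% there and 7.95% in line 79. MIR22HG went from 2.47 and 3.52 TPM to 12.3 and 8.25 TPM (1.49, adjusted P = 0.0355). MIR31HG went from 2.70 and 2.21 TPM to 7.03 and 6.44 TPM (1.16, adjusted P = 0.0217). In line 79, UCA1, an lncRNA named for urothelial cancer, rose from 46.2 and 49.3 TPM to 179 and 184 TPM (1.90, adjusted P = 2.60e-04), and MIR31HG rose by 0.71 (adjusted P = 0.0362).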

How the data were processed

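The authors cleaned reads with fastp, aligned them to hg38 with Hisat2 and ran Stringtie on each library. They deposited, for each gene, coverage (a signal, mean aligned bases per position), FPKM and TPM. The labels give poly(A) RNA, while the methods of the study describe ribosomal RNA depletion. These values hold no read counts, so counting error was not estimated and errors are spreads over libraries. The test was limma 3.58.1 in R 4.3.3 (lmFit, eBayes with trend) on log2(TPM + 1), over genes with at least 1 TPM in 2 libraries of the fit, with Benjamini-Hochberg adjustment over all genes tested. The tests were tested on simulated data. Aligned bases came from the upper limit of the ratio of coverage to FPKM. Of 60504 identifiers, 56558 were found in GENCODE release 44, which gave the protein-coding genes.

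The members and the gene lists were chosen with earlier results of these data known. All members are named, and of each list up to 4 genes with the largest change among those called in a comparison. For each member the 2 genes of highest Pearson r are named. A few genes that these rules name are not reported here. SFPQ, NONO and the genes near U11 are named beyond that rule. Alternatives were a pseudocount of 0.1, FPKM, median ratio scaling, quantile normalization, the protein-coding total, other filters, no trend, all 12 libraries in 1 fit, blocks, adjusted or unadjusted P, and each library left out. Coverage was added after seeing the data. Start sequences of 6 members were matched in RefSeq (GRCh38.p14). Python 3.11.15, pandas 2.3.3 and matplotlib 3.10.9 were used.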

Additional observations from a re-analysis of the deposited data

Results flagged for a closer look

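H19 in replicate 1 of line 79 stood far from the other overexpression libraries: its gap to the nearest of the other 5 was 0.657 of the whole range of the 6 on the TPM scale. About 1 in 20 groups of like samples gives such a gap by chance, but these 6 libraries are 3 lines and H19 was 1 of 10 members looked at, so that share does not apply to it directly.

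The effects of the 3 lines against shared controls differed for MALAT1 (adjusted P = 0.00315), GAS5 (adjusted P = 0.0177) and H19 (adjusted P = 0.0253) by limma's moderated F test. H19 passed the filter only through line 79, and with all genes unfiltered its adjusted P was 0.0770.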

How the results depend on the processing

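In the knockout comparison 0 members were called as processed, 1 with FPKM in place of TPM, 1 with median ratio scaling, and 1 to 2 with each library left out. The replicate block gave 0 there. For line 79 the count of 2 was 1 with a filter of 1 TPM in every library and 1 to 2 with each library left out: H19 was under the filter in the former and without either library of line 79. Between lines the count of 3 was 2 with no filter (H19 lost, adjusted P = 0.0770) and with 1 TPM in every library, 5 by unadjusted P, 1 to 3 with each library left out, and 4 with library series as the replicate block, where TUG1 joined (adjusted P = 0.0201). No other call changed under a block. In the knockout comparison same-numbered libraries shared only a number, and across genes their deviations correlated at 0.024. In the overexpression set replicate 1 of each line shares a library series code with control 3, and replicate 3 with control 4. Differences between the series correlated at 0.070 to 0.15 over pairs of groups. Between the controls of the 2 sets the count of 8 was 5 with FPKM, 5 with median ratio scaling, 3 with quantile normalization and 2 with the protein-coding total. The count of members that differed between the knockout and overexpression comparisons was 0 as processed, 1 with median ratio scaling (SNHG1), 1 with coverage (SNHG5), 2 by unadjusted P, and 0 to 1 with each library left out.

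Of 1337 values of single members under an alternative, 1250 kept their direction and call, 26 lost a call and 17 gained one. The other 44 changed sign, none of them called under either setting. The cause was tested for none of these, except where a filter or an unadjusted P made the change by construction. In the knockout comparison TUG1 went to -0.023 with FPKM, -0.069 with median ratio scaling and -0.00607 with quantile normalization, and SNHG15 to -0.00855, -0.054 and -0.022 in the same order and to -0.19 with coverage. In line 79 TUG1 went to 0.019 with median ratio scaling and 0.028 with quantile normalization, and SNHG12 to 0.00247 with quantile normalization and 0.00607 with coverage. In line 86 NEAT1 went to -0.11 with coverage. The difference between the knockout and overexpression effects of SNHG12 went to -0.023 with FPKM, -0.085 with median ratio scaling and -0.061 with quantile normalization, and that of SNHG15 to -0.042 with coverage.

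With each library left out, log2 fold changes crossed 0 in the knockout comparison for TUG1 (-0.073 to 0.23), SNHG12 (-0.32 to 0.27) and SNHG15 (-0.075 to 0.25), and in the overexpression comparison for MALAT1 (-0.067 to 0.15), SNHG5 (-0.21 to 0.13) and SNHG12 (-0.28 to 0.077). They did so in line 79 for TUG1 (-0.071 to 0.025), SNHG5 (-0.15 to 0.19), SNHG12 (-0.23 to 0.13) and SNHG15 (-0.31 to 0.031). In line 86 this held for NEAT1 (-0.25 to 0.68), H19 (-0.31 to 0.092) and SNHG5 (-0.27 to 0.068), and in line 87 for H19 (-0.42 to 0.051), SNHG1 (-0.13 to 0.00233), SNHG5 (-0.22 to 0.12) and SNHG12 (-0.072 to 0.29). The difference between the effects crossed 0 for NEAT1 (-0.21 to 0.73) and SNHG12 (-0.22 to 0.37). With 2 libraries in a group 1 library can decide a call, and a group left with 1 library was assumed to vary like the others.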

Other observations

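The microRNA MIR675 is cut from an exon of H19. Its entry stood at or under 0.206 TPM in control T24 and at or under 0.0517 TPM in control T. In the overexpression libraries it was at 0.0843 to 0.142 TPM, too low to follow H19.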
